A study of Mus musculus with 20 samples.

Results

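Antigen presentation in mouse quadriceps muscle was followed here through 10 genes, taken by name from the 17415 genes of the table: 4 of the major histocompatibility complex (MHC) class I arm (B2m, H2-K1, H2-D1 and Tap1) and 6 of the class II arm (Cd74, H2-Aa, H2-Ab1, H2-Eb1, H2-DMa and Ciita). All 10 were present in the table and all 10 passed the filter on low values, which left 13164 genes for testing. RNA-seq was performed on 20 quadriceps libraries, 5 in each of 4 groups, at day 7 after ACLT, the surgical transection of the anterior cruciate ligament of the knee. The groups were the injured (ACLT) limb and the uninjured control limb of mice given a placebo antibody (PLA Ab), and the same limbs of mice given an antibody against GDF8 (GDF8 Ab). GDF8, or myostatin, is a secreted protein that restrains muscle growth. Both antibodies were injected under the skin repeatedly, and every mouse had been operated on. The control limb was the opposite limb of an injured animal, and no limb of an unoperated mouse entered these groups. Male and female mice between 4 and 5 months of age were used. The methods name C57BL6/J mice and Col1-eGFP mice, which carry a green fluorescent reporter driven by a type I collagen promoter, and the reporter was scored in mice of the same experiment. The sources used here do not name the strain library by library.

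Class I molecules are built from a heavy chain, here H2-K1 or H2-D1, and the light chain B2m. They carry peptides from inside the cell, which TAP, a transporter with Tap1 as a subunit, moves into the endoplasmic reticulum, and nearly every nucleated cell can display them. Class II molecules pair an alpha and a beta chain (H2-Aa with H2-Ab1 form I-A, and H2-Eb1 is the beta chain of I-E), travel with the invariant chain Cd74, and receive their peptides with the help of the H2-DM heterodimer, of which H2-DMa is the alpha chain. Class II is found mainly on dendritic cells, macrophages and B cells, where Ciita is the transcriptional co-activator that switches the whole arm on. Interferon gamma raises both arms, and resting muscle fibres carry little of either.

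Short control elements of class I and class II promoters were searched for in the members, and not every member held them. Their part in the results was not tested. Sequences upstream of the start site were taken from RefSeq on GRCm38.p6, which held windows for 7 of the 10 members, H2-K1, H2-D1, B2m, Tap1, H2-Aa, H2-Eb1 and H2-DMa. For the class I arm, the letters searched on both strands were GGGATTCCC, the NF-kappaB site of class I genes, and TTTCNNTT, an element recognised by interferon regulatory factors. Capitals mark these letters, and the stretches lie at chr17:34000418-34000469 on the minus strand for H2-K1, chr17:35262912-35262963 on the plus strand for H2-D1, and chr2:122147538-122147569 on the plus strand for B2m.
H2-K1: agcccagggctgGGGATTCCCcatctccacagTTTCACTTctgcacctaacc
H2-D1: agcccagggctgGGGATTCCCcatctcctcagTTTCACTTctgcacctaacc
B2m: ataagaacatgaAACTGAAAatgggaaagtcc
Among all 32851 windows of 250 bases, 0.301% held the NF-kappaB letters, 21.3% the interferon element and 0.0487% both. H2-K1 and H2-D1 held both, in B2m the interferon element stood on the opposite strand, and Tap1 held neither. The interferon element was also present in the window of the class II gene H2-Aa and in 1 of the 2 windows of H2-DMa. The windows of H2-K1 and H2-D1 shared an unbroken run of 47 identical bases. These heavy chains are close paralogs along their transcripts too, and how reads that fit both were counted is not given in the sources used here, so their separate values are uncertain.

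For the class II arm, the letters searched on both strands were GCAAC, the core of the X box, and CTGATTGG, the Y box bound by NF-Y, which together form the platform on which Ciita acts. The stretches lie at chr17:34287855-34287916 on the minus strand for H2-Aa and chr17:34305764-34305824 on the plus strand for H2-Eb1.
H2-Aa: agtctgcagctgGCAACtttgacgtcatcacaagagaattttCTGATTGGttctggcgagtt
H2-Eb1: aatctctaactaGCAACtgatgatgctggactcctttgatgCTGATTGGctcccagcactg
The X core occurred in 29.9% of all windows and the Y box in 3.83%, while an X core followed by a Y box within 40 bases occurred in 0.137%. Both class II windows shown held that ordered pair. Of the 2 windows of H2-DMa, 1 held the X core and neither held a Y box. H2-D1 and Tap1, of the class I arm, held the 2 elements without this spacing. No printed motifs overlapped one another. A match of letters describes the window and was not measured as binding.

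Expression is given as CPM, read counts scaled so that every library has the same total. CPM does not correct for transcript length, so levels are compared between groups and not between genes. The step between low values put the depth at 15.6 to 24.2 M reads per library, at which 3 reads correspond to 0.124 to 0.192 CPM, and reads without molecular identifiers carry counting error that this does not cover. Y-linked genes were on in 6 libraries (PLA Ab 1 and 3 and GDF8 Ab 3, both limbs), where the mean of 4 such genes was 30.8 to 38.4 CPM, and off in the other 14 libraries (0.0598 to 0.403 CPM). Within a group the libraries came from separate mice and were not pooled, while the labels give neither sex nor which limbs belonged to the same mouse. The PLA Ab ACLT group was the most variable, and its libraries 2, 4 and 5 were the highest and its Y-linked libraries 1 and 3 the lowest for all 10 members. In whole muscle, fewer cells of a type and less RNA per cell cannot be told apart.

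With PLA Ab, transcripts of both arms were higher in the ACLT limb than in the control limb, and the groups held no sham-operated limb. All 10 members rose in the ACLT limb against the control limb, where 29.1% of all tested genes rose. The median log2 fold change of the 10 was 1.42, beside 0.20 over all tested genes. It was 1.30 for the 4 class I genes and 2.36 for the 6 class II genes. The 5 ACLT libraries lay above all 5 control libraries for 9 of 10 members, a separation that 10.6% of tested genes showed, and Tap1 was the exception with 4 of 5.

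B2m, the shared light chain of class I molecules, measured 55.1, 48.2, 43.4, 58.6 and 50.0 CPM in control limb libraries 1 to 5 and 78.1, 121, 75.6, 176 and 251 CPM in ACLT limb libraries 1 to 5. The groups did not overlap, and the control libraries were close together while the ACLT libraries spread more than 3-fold. B2m rose by 1.29 on the log2 scale (SE 0.260, limma adjusted p = 0.00207), from 51.1 ± 5.95 to 140.4 ± 73.9 CPM (mean ± SD, n = 5). The heavy chains moved with it. H2-K1 measured 69.7, 60.4, 51.9, 64.9 and 56.9 CPM in the control limb and 81.5, 114, 84.8, 175 and 236 CPM in the ACLT limb, and rose by 1.05 (SE 0.238, limma adjusted p = 0.00392). H2-D1 measured 68.3, 62.5, 54.0, 78.3 and 65.1 CPM in the control limb and 99.2, 139, 113, 241 and 303 CPM in the ACLT limb, and rose by 1.31 (SE 0.243, limma adjusted p = 0.00136). Again no control library reached the lowest ACLT library, and library 5 of the ACLT limb was the highest in each case. Tap1, the peptide transporter subunit, measured 2.83, 2.04, 2.08, 4.49 and 2.97 CPM in the control limb and 5.30, 9.62, 4.34, 14.6 and 16.9 CPM in the ACLT limb. Control library 4 lay above ACLT library 3, so the groups overlapped by a single library, and Tap1 rose by 1.40 (SE 0.293, limma adjusted p = 0.00267).

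Among the class II genes, Cd74 and the alpha and beta chains had the larger fold changes. Cd74, the invariant chain that escorts class II molecules, measured 18.8, 33.3, 8.88, 10.1 and 21.7 CPM in the control limb and 43.4, 97.5, 33.7, 137 and 240.3 CPM in the ACLT limb. The ranges met but did not cross, at 33.3 CPM in control library 2 and 33.7 CPM in ACLT library 3. Cd74 rose by 2.31 (SE 0.421, limma adjusted p = 0.00117), from 18.5 ± 9.90 to 110.4 ± 83.8 CPM. H2-Ab1, the I-A beta chain, measured 8.03, 11.7, 1.99, 5.07 and 7.43 CPM in the control limb and 19.4, 45.2, 15.6, 63.7 and 109.6 CPM in the ACLT limb. Its groups did not overlap, and at 2.53 (SE 0.436, limma adjusted p = 0.00081) it had the largest log2 fold change of the 10. Its partner H2-Aa rose from 6.53 ± 2.86 to 47.4 ± 37.2 CPM (log2 fold change 2.40, SE 0.409, limma adjusted p = 0.000776). H2-Eb1, the I-E beta chain, rose from 6.15 ± 3.38 to 44.9 ± 35.7 CPM (log2 fold change 2.42, SE 0.428, limma adjusted p = 0.000979). For both, the lowest ACLT library (14.9 and 14.4 CPM) exceeded the highest control library (11.0 and 11.8 CPM). H2-DMa, which helps load peptides, ranged from 1.02 to 2.86 CPM in the control limb and from 2.87 to 12.5 CPM in the ACLT limb, and rose by 1.32 (SE 0.293, limma adjusted p = 0.00358). At such low CPM the added pseudocount of 1 shrinks a fold change. With a pseudocount of 5 in its place H2-DMa was at 0.69 and Tap1 at 0.87, and both still rose.

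Ciita, the co-activator of class II genes, was the weakest of the 10 in CPM. It measured 0.592, 0.523, 0.879, 1.09 and 0.949 CPM in the control limb and 1.63, 3.89, 1.71, 5.87 and 10.2 CPM in the ACLT limb. No libraries overlapped, and the control values stood for 11 to 23 reads. Ciita rose by 1.44 on the log2(CPM + 1) scale (SE 0.298, limma adjusted p = 0.00253), and by 2.10 with a pseudocount of 0.1 or 0.66 with a pseudocount of 5.

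**Figure D1:**
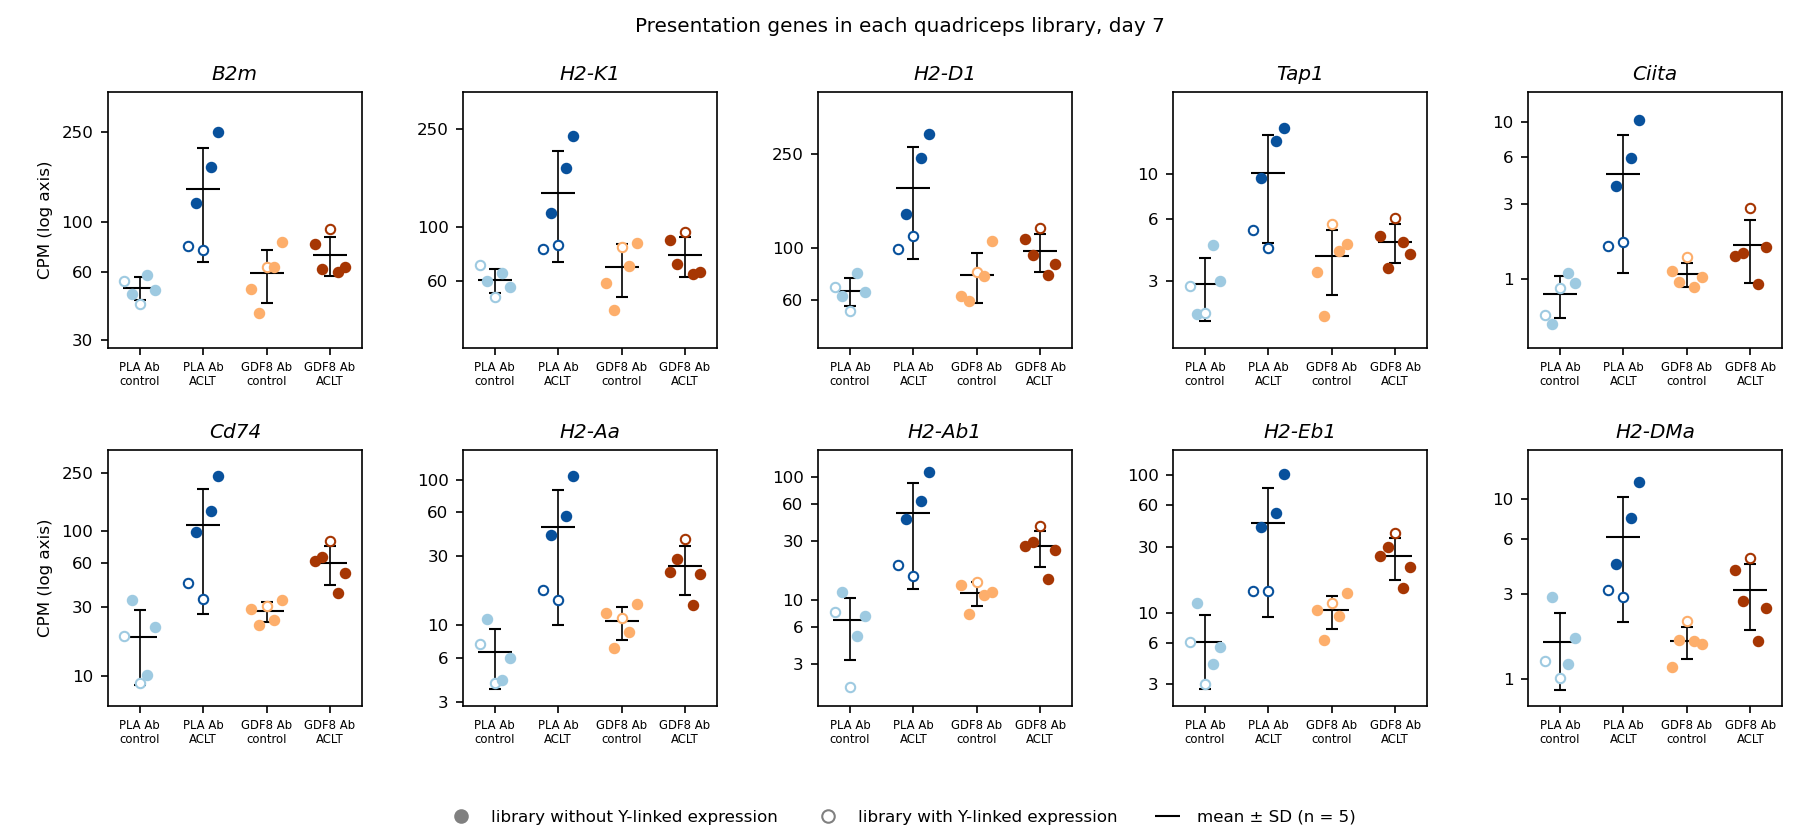
CPM of each of the 10 presentation genes (log axes) in every library of the 4 groups, with black marks for mean ± SD (n = 5) and open points for libraries with Y-linked expression. PLA Ab ACLT points sit above the PLA Ab control points for 9 of 10 genes, and the open points are the 2 lowest of each PLA Ab ACLT group.

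Other genes of the same pathways moved in the same direction with PLA Ab, where 29.1% of all tested genes rose. Of 20 class I pathway genes, 17 rose and 0 fell, with a median log2 fold change of 0.68. Among them, H2-T23, which encodes the non-classical molecule Qa-1, rose by 1.15, Pdia3, a member of the peptide-loading complex, by 1.67, and Psmb8, an immunoproteasome subunit, by 1.14 (limma adjusted p = 0.00258, 0.00369 and 0.00511). H2-T24 also rose, by 0.71 (limma adjusted p = 0.00491). H2-Q7, Erap1 and H2-Q6 did not pass the test (0.61, 0.26 and 0.26). Of 11 class II pathway genes tested, 7 rose and 0 fell. Ctss, the protease that trims the invariant chain, rose by 4.13, Lgmn, an endosomal protease, by 2.37, H2-DMb1, the partner chain of H2-DMa, by 1.81, and Ifi30, a thiol reductase of the endosome, by 2.51 (limma adjusted p = 3.87e-05, 0.000449, 0.000604 and 0.000782). The subunits of the RFX complex, which binds the X box, did not pass the test: Rfx5 was at 0.19, Rfxap at -0.19 and Rfxank at 0.38. Of 16 tested genes of interferon gamma signalling, 10 rose, led by the chemokine Cxcl10 (1.29), the transcription factor Irf8 (1.33), the chemokine Cxcl9 (1.11) and the GTPase Irgm1 (0.46), with limma adjusted p of 0.00178, 0.00207, 0.0051 and 0.0118. The receptor chain Ifngr2 and the kinases Jak1 and Jak2 did not pass it (-0.03, 0.13 and -0.13).

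Of the 10 members, 7 lie on chromosome 17, in the MHC, while B2m lies on chromosome 2, Ciita on chromosome 16 and Cd74 on chromosome 18. In the coordinates of the table, which are not those of mm10 (GRCm38), the interval from H2-K1 to H2-Eb1 (chromosome 17, positions 34214991 to 34535649) held 6 of them and 11 other tested genes. All 6 members there rose with PLA Ab after ACLT, as did 4 of 4 genes of the pathway lists. Of the 7 remaining genes between them, which have no place in either pathway list, 2 rose (Brd2 by 0.22 and Slc39a7 by 0.48), against 29.1% of all tested genes. The median log2 fold change of these 7 was 0.22. Col11a2, Gm20427, H2-Ke6, Ring1 and Rxrb did not pass the test.

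Every member rose in each of the 20 fits that left out a single library. A different scaling, by the median of ratios, moved the median of all tested genes from 0.20 to -0.04 and the calls over all genes from 3829 higher and 203 lower to 2570 higher and 2186 lower, and the 10 members still rose, by 0.78 to 2.27.

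With GDF8 Ab, the class I genes differed little between the limbs and Cd74, H2-Aa, H2-Ab1 and H2-Eb1 were about 2-fold higher in the ACLT limb without passing the test. In this comparison limma called 0 of 10 members, against 0.0228% of tested genes called higher (3 genes). At an unadjusted p under 0.05 it gave 4 of 10 members, Cd74, H2-Aa, H2-Ab1 and H2-Eb1, against 2.51% of tested genes in either direction. The median log2 fold change was 0.25 for class I and 1.10 for class II members, beside 0.05 over all tested genes.

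Cd74 measured 28.9, 22.5, 30.4, 24.2 and 33.1 CPM in control limb libraries 1 to 5 of the GDF8 Ab mice and 62.1, 65.8, 85.0, 37.4 and 51.1 CPM in their ACLT limb libraries 1 to 5. All ACLT libraries were above all control libraries, and the spread within each limb was narrow beside that of the PLA Ab ACLT group. The log2 fold change was 1.05 (95% interval 0.17 to 1.93, limma unadjusted p = 0.0215). The interval rests on a spread per gene that the fit shares over all 4 groups, the variable PLA Ab ACLT group among them. H2-Ab1 measured 13.3, 7.65, 13.9, 10.9 and 11.6 CPM in the control limb and 27.5, 29.8, 39.9, 14.9 and 25.4 CPM in the ACLT limb. It too separated the limbs, as did H2-Eb1 (6.30 to 13.8 against 15.0 to 38.0 CPM), while H2-Aa did not (6.95 to 14.0 against 13.7 to 39.3 CPM). Of all tested genes, 1.75% separated the limbs in this way. H2-Ab1, H2-Eb1 and H2-Aa had log2 fold changes of 1.15, 1.22 and 1.14 (limma unadjusted p = 0.0157, 0.0101 and 0.0117). H2-DMa (0.61) and Ciita (0.32) were smaller, with overlapping limbs.

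B2m measured 50.5, 39.6, 63.0, 63.5 and 81.7 CPM in the control limb and 80.2, 62.3, 92.9, 60.2 and 63.4 CPM in the ACLT limb. The limbs overlapped, with control library 5 above 4 of the 5 ACLT libraries. Its log2 fold change was 0.28, with a 95% interval of -0.26 to 0.83 that includes no difference. H2-K1 (0.18), H2-D1 (0.35) and Tap1 (0.23) had intervals of -0.32 to 0.67, -0.16 to 0.85 and -0.39 to 0.84. None of the 20 class I pathway genes, 11 class II pathway genes or 16 interferon gamma genes was called here, and 0, 2 and 0 of them had an unadjusted p under 0.05. The 2 were Ctss (2.19) and H2-DMb1 (1.02), where 2.51% of all tested genes had such a p.

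**Figure D2:**
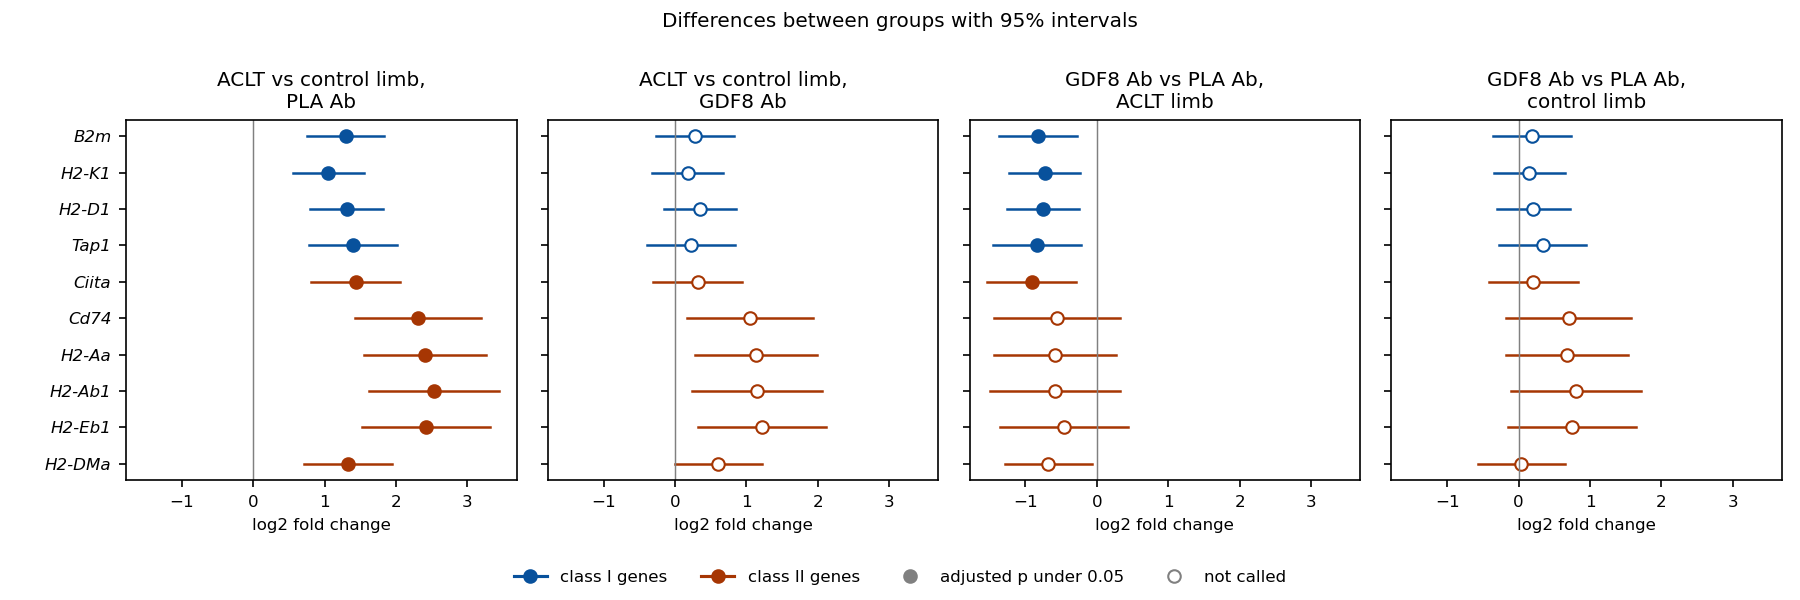
Log2 fold change of each presentation gene (x axis) with its 95% interval (line) in 4 comparisons, filled where the adjusted p was under 0.05, with class I genes in blue and class II genes in orange. All 10 are filled for ACLT with PLA Ab, 0 for ACLT with GDF8 Ab, and 5 (the class I genes and Ciita) between the antibodies after ACLT.

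In the ACLT limb all 10 members had lower estimates with GDF8 Ab than with PLA Ab, and only the class I genes and Ciita passed the test. The estimates ran from -0.46 to -0.91, and the arms were not tested against each other. Called lower were 5 of 10 members, against 19% of tested genes: B2m (-0.82, limma adjusted p = 0.0375), H2-K1 (-0.73, 0.0405), H2-D1 (-0.76, 0.0394), Tap1 (-0.84, 0.0498) and Ciita (-0.91, 0.0410). Not called were Cd74 (-0.56, limma adjusted p = 0.326), H2-Aa (-0.59), H2-Ab1 (-0.58), H2-Eb1 (-0.46) and H2-DMa (-0.68). The median of the 10 was -0.70, beside -0.20 over all tested genes.

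For 0 of 10 members did all 5 GDF8 Ab libraries lie below all 5 PLA Ab libraries, which 4.35% of tested genes did. B2m averaged 71.8 ± 14.3 CPM with GDF8 Ab and 140.4 ± 73.9 CPM with PLA Ab, and 3 GDF8 Ab libraries were below every PLA Ab library. Ciita measured 1.40, 1.47, 2.84, 0.932 and 1.60 CPM in GDF8 Ab ACLT libraries 1 to 5, and 4 of these were below the lowest PLA Ab ACLT library at 1.63 CPM. Cd74 averaged 60.3 ± 17.7 CPM with GDF8 Ab and 110.4 ± 83.8 CPM with PLA Ab, and all 5 GDF8 Ab values fell inside the PLA Ab range. Its interval ran from -1.44 to 0.32 and held both no difference and a halving of the level. It too rests on the spread shared over all 4 groups.

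Of the pathway lists, 8 of 20 class I pathway genes were lower with GDF8 Ab, led by H2-T22, a non-classical class I gene (-0.53), Tapbpl, a peptide editor (-0.46), Tap2, the partner of Tap1 (-0.66), and Pdia3 (-1.22), with limma adjusted p of 0.0175, 0.0271, 0.0284 and 0.0350. Of 11 class II pathway genes, 6 were lower, led by Ctss (-2.02), Lgmn (-1.64), Ifi30 (-1.89) and Ctsb, an endosomal protease (-0.89), with limma adjusted p of 0.0157, 0.0158, 0.0162 and 0.0209. Rfx5 of the RFX complex was also among the 6 (-0.55, limma adjusted p = 0.0247), and in the control limb it was at -0.49 without passing the test. H2-DMb1 was not called (-0.46, limma adjusted p = 0.248), nor was the protease Ctsl (-0.63), and differences between genes were not tested. Of 16 interferon gamma genes, 2 were lower, Cxcl10 (-1.22) and Irf8 (-1.11), with limma adjusted p of 0.0140 and 0.0188. Of all tested genes, 19% were called lower in this comparison. The counts of 8 of 20 and 6 of 11 exceeded that share, and 2 of 16 did not.

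The 5 calls in the ACLT limb were close to the threshold. With a pseudocount of 0.1 Tap1 was lost (limma adjusted p = 0.0589), and with a pseudocount of 5 Ciita was at -0.47. They fell to 0 when the filter was 10 CPM in 5 libraries, with median-of-ratios scaling, with a variance per group, or with those 2 groups fitted alone, to 0 without PLA Ab ACLT library 4 or 5 or GDF8 Ab ACLT library 1, 2, 4 or 5, to 1 without PLA Ab ACLT library 2 and to 3 without GDF8 Ab control library 4. Without PLA Ab ACLT libraries 4 and 5 together, Cd74 was at 0.15 and B2m at -0.34. The median-of-ratios scaling also moved the calls over all genes from 106 higher and 2503 lower to 671 higher and 1289 lower.

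The interaction, the effect of ACLT with GDF8 Ab minus that with PLA Ab, was negative for all 10 members, from -0.72 (H2-DMa) to -1.38 (H2-Ab1). In limma 0 of 10 passed the test, as did 0% of tested genes, with limma adjusted p of 0.247 to 0.368. At an unadjusted p under 0.05 it gave 8 of 10 members, all but H2-Eb1 and H2-DMa, against 16.6% of tested genes. Without PLA Ab ACLT library 1, the lowest or next to lowest of its group for each member, B2m, H2-K1, H2-D1, Tap1 and Ciita passed, 5 of 10 members against 9.27% of tested genes called lower. In every other fit that left out a single library, no member and no other tested gene passed the test of the interaction.

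The antibody difference was larger among the 14 libraries without Y-linked expression, a restriction chosen after the data were seen. It left 3 libraries in each PLA Ab group and 4 in each GDF8 Ab group, and it removed the 2 lowest PLA Ab ACLT libraries and the highest GDF8 Ab ACLT library. Among these, Cd74 stood at 97.5, 137 and 240.3 CPM with PLA Ab and at 62.1, 65.8, 37.4 and 51.1 CPM with GDF8 Ab in the ACLT limb. All 10 members separated in the same way, as did 45.2% of tested genes. In limma on these libraries, 10 of 10 members were lower with GDF8 Ab in the ACLT limb, where 47.8% of tested genes were, and 9 of 10 passed the test of the interaction, all with negative values, where 24.9% of tested genes did. Cd74 was lower at -1.46 (limma adjusted p = 0.00284) and B2m at -1.39 (limma adjusted p = 0.000318), and their interactions were -1.91 (0.0115) and -1.51 (0.00611). H2-DMa was the exception in the interaction (-1.06, limma adjusted p = 0.0674). All 10 still rose after ACLT with PLA Ab, where 42.7% of tested genes did. In the libraries with Y-linked expression the order was the opposite, with Cd74 at 43.4 and 33.7 CPM with PLA Ab and 85.0 CPM with GDF8 Ab, and B2m at 78.1 and 75.6 against 92.9 CPM. With 2 libraries against 1, that difference between the libraries with and without Y-linked expression was not tested.

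In the control limb, GDF8 Ab and PLA Ab did not separate any member. In limma 0 of 10 members and 0% of tested genes were called, and 0 of 10 had an unadjusted p under 0.05, against 6% of tested genes. The 4 structural class II genes had the larger values: Cd74 0.70 (95% interval -0.18 to 1.58), H2-Aa 0.68 (-0.18 to 1.53), H2-Ab1 0.80 (-0.11 to 1.71) and H2-Eb1 0.74 (-0.15 to 1.64). The class I genes lay between 0.15 and 0.33, Ciita at 0.21 and H2-DMa at 0.04. Cd74 averaged 18.5 ± 9.90 CPM with PLA Ab and 27.8 ± 4.38 CPM with GDF8 Ab, and the low PLA Ab libraries were 3 and 4.

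Summed over their members, both arms ordered the groups alike. Over its 6 members, the class II arm stood at 40.5 ± 19.9 CPM in PLA Ab control, 264 ± 203 CPM in PLA Ab ACLT, 63.1 ± 11.8 CPM in GDF8 Ab control and 144 ± 46.2 CPM in GDF8 Ab ACLT. The class I sum over 4 members stood at 180.3 ± 21.4, 468 ± 234, 209 ± 50.9 and 251 ± 46.4 CPM in the same order. The class II sum per class I sum was higher in the ACLT limb under both antibodies, at 0.226 ± 0.116 and 0.508 ± 0.171 with PLA Ab and at 0.307 ± 0.0473 and 0.567 ± 0.116 with GDF8 Ab. With GDF8 Ab the limbs did not overlap (0.263 to 0.382 against 0.405 to 0.688), and with PLA Ab they did (0.126 to 0.411 against 0.300 to 0.720). Within I-A, the ratio of H2-Ab1 to H2-Aa averaged 1.02, 1.08, 1.09 and 1.09 in the 4 groups. The ratio of H2-D1 to H2-K1 was 1.08 ± 0.0917 in PLA Ab control and 1.29 ± 0.0700 in PLA Ab ACLT without overlap, and 1.13 ± 0.140 and 1.26 ± 0.0551 with GDF8 Ab with overlap, with the doubt about shared reads noted above. These ratios describe the libraries and were not tested.

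Macrophage and monocyte markers rose with the members after ACLT with PLA Ab, and differed from them in size between the antibodies. All 12 of 12 (Adgre1, Cd68, Csf1r, Lyz2, Cd163, Mrc1, Fcgr1, C1qa, C1qb, C1qc, Mertk and Ccr2) rose after ACLT with PLA Ab, against 29.1% of tested genes. In the ACLT limb 11 of 12, all but Ccr2, were lower with GDF8 Ab, against 19% of tested genes. The median log2 fold change of the 12 markers there was -1.75, beside -0.70 for the 10 members. Between the antibodies in the control limb it was -0.04 for the markers and 0.27 for the members. The sum of the 12 markers ranged from 42.8 to 119 CPM in PLA Ab control, 308 to 2179.8 CPM in PLA Ab ACLT, 62.0 to 105 CPM in GDF8 Ab control and 91.7 to 355 CPM in GDF8 Ab ACLT. None of the 12 was at 0 in a group as a whole, and their part in the result was not tested. After ACLT with GDF8 Ab, limma called 0 of 12, and 8 of 12 had an unadjusted p under 0.05, against 2.51% of tested genes.

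The class II sum per macrophage sum was lowest in the PLA Ab ACLT group, where the macrophage sum itself was highest. Of all tested genes divided by that sum, 92.1% separated with PLA Ab ACLT below PLA Ab control, and 4 of 10 members did (B2m, H2-K1, H2-D1 and H2-DMa). The class II sum per macrophage sum was 0.480, 0.597, 0.463, 0.385 and 0.429 with PLA Ab in the control limb, libraries 1 to 5, and 0.323, 0.369, 0.217, 0.242 and 0.266 in the ACLT limb. It was 0.933, 0.607, 1.00, 0.907 and 0.719 with GDF8 Ab in the control limb and 0.654, 0.599, 0.590, 0.911 and 0.640 in the ACLT limb. The antibodies did not overlap in either limb, and GDF8 Ab was the higher in both. Taken gene by gene, 7 of 10 members per macrophage sum separated the ACLT limbs with GDF8 Ab above PLA Ab, against 20.8% of all tested genes, and 2 of 10, Cd74 and H2-Ab1, did so in the control limbs, against 0.106%. Cd74 per single marker separated the ACLT limbs in this direction for 10 of 12 markers, and the control limbs for 3 of 12. Cd74 per Cd163 and per Mertk had its lowest median in PLA Ab control instead, with medians of 1.89 and 9.21 against 4.31 and 11.2 in PLA Ab ACLT. These ratios were formed after the data were seen and are a description with no test.

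**Figure D3:**
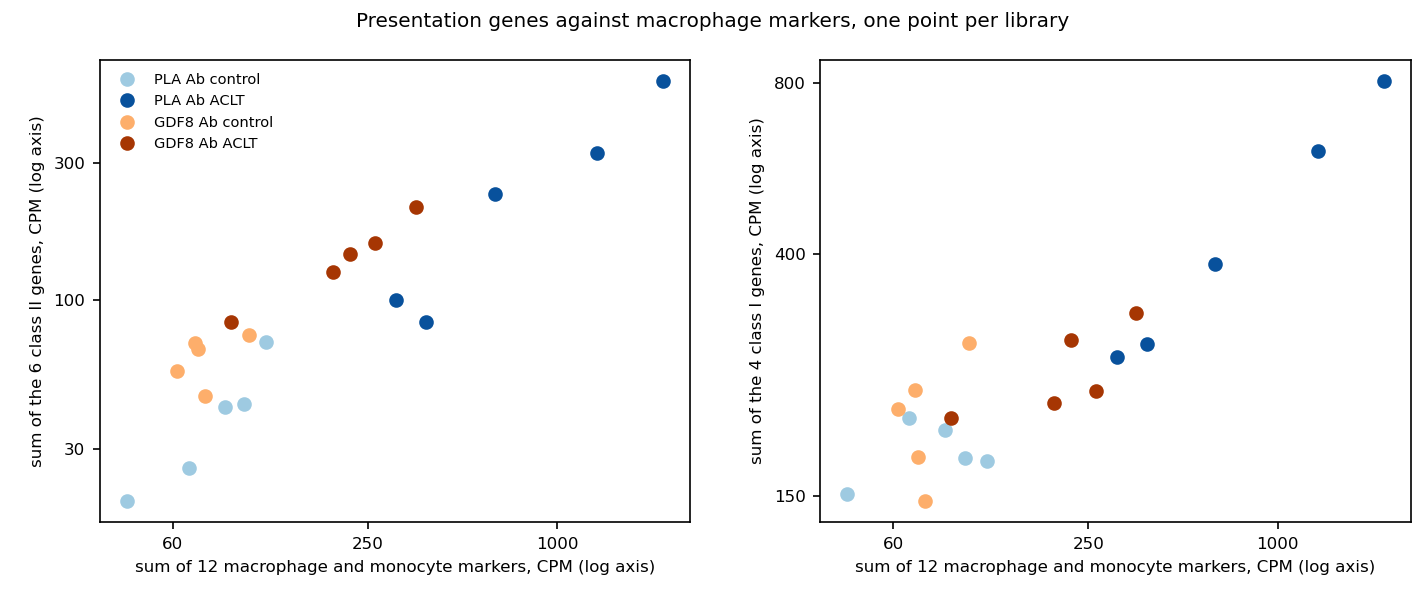
Sum of the 6 class II genes (left) and of the 4 class I genes (right) in CPM against the sum of 12 macrophage and monocyte markers in CPM, all on log axes, with 1 point per library coloured by group. On the left the GDF8 Ab points lie above PLA Ab points of similar marker level, with class II per marker at 0.590 to 0.911 in GDF8 Ab ACLT and 0.217 to 0.369 in PLA Ab ACLT.

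Markers of other presenting cells were examined in the same way. Of 5 tested dendritic cell genes, 2 rose with PLA Ab and were lower with GDF8 Ab in the ACLT limb: Itgax, an integrin also made by macrophages (2.96 and -1.74), and Clec10a, a lectin also found on macrophages (2.14 and -1.14). Of all tested genes, 29.1% rose and 19% were lower in these comparisons. Zbtb46, Cd209a and Irf4 did not pass the test with PLA Ab (0.28, 0.64 and 0.65) or between the antibodies in the ACLT limb (-0.24, -0.24 and -0.17). Flt3, Xcr1 and Clec9a, which define dendritic cells more narrowly, reached at most 2.20, 1.03 and 1.12 CPM in any library. Flt3 was at 0 in 3 PLA Ab control libraries. The medians of Flt3, Xcr1 and Clec9a were 0, 0.21 and 0.32 CPM in PLA Ab control and 0.59, 0.64 and 0.69 CPM in PLA Ab ACLT. The summed level of the 10 dendritic cell genes was 7.83 to 14.2 CPM in PLA Ab control, 22.4 to 80.8 CPM in PLA Ab ACLT, 10.9 to 16.7 CPM in GDF8 Ab control and 14.4 to 22.8 CPM in GDF8 Ab ACLT. Of the B cell list, 3 of 7 genes were analysed, and 0 of 2 tested genes rose with PLA Ab. Igkc, an immunoglobulin light chain, was higher with GDF8 Ab in the ACLT limb (log2 fold change 1.40, limma adjusted p = 0.0142). In the control limb Igkc was at 1.22 without passing the test (limma adjusted p = 0.348). Cd79b, part of the B cell receptor, stayed at or below 0.758 CPM in all 20 libraries. The B cell sum, nearly all Ighm, ranged from 21.7 to 327 CPM in PLA Ab control and from 31.8 to 290 CPM in PLA Ab ACLT, with 41.7 to 234 CPM and 44.1 to 230 CPM in the GDF8 Ab limbs. In each group the highest was library 3, which had Y-linked expression, and this was not tested. Of the T and NK cell list only Cd3e was tested, and it did not rise (-0.01). Cd4, Lck and Cd3g fell below the filter, with medians of 0.0825, 0.0846 and 0.0463 CPM in PLA Ab control. In PLA Ab ACLT these medians were 1.89, 0.421 and 0.0493 CPM. The sum over this list ranged from 1.73 to 6.37 CPM in PLA Ab control and from 2.68 to 6.85 CPM in PLA Ab ACLT. The pan-leukocyte gene Ptprc rose with PLA Ab (2.67) and was lower with GDF8 Ab in the ACLT limb (-1.34). Of 6 endothelial and 7 muscle fibre genes, 0 were called after ACLT with PLA Ab, and only Des, the muscle intermediate filament desmin, was called between the antibodies in the ACLT limb (-0.42, limma adjusted p = 0.0302), and the muscle fibre sum stayed at or above 82339 CPM in all libraries. The part of these cells in the results was not tested.

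Genes outside the 10 whose levels followed them most closely differed between the arms. Over all 20 libraries, the 5 genes with the highest Pearson r with Cd74 were C1ra (0.957), H2-DMb1 (0.952), Fcgr2b (0.944), Coro1a (0.930) and Clec10a (0.930). For B2m they were Ddx58 (0.977), Pxdn (0.976), Kctd17 (0.976), Myadm (0.975) and Psmb8 (0.975). On deviations from the 4 group means, Hpgd (0.952), Oaf (0.935), Fcgr2b (0.932), Rhog (0.932) and Cyth4 (0.929) were closest to Cd74, and Parp14 (0.964), Pgrmc1 (0.963), Kctd17 (0.961), Ddx58 (0.957) and Tnfrsf1a (0.957) to B2m. Within the class II arm Cd74 followed H2-Aa, H2-Ab1 and H2-Eb1 (0.989, 0.988 and 0.989) more closely than its co-activator Ciita (0.848), which followed B2m at 0.940. These correlations share libraries, depth and the 4 groups, and are given as a description.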

How the data were processed

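Quadriceps RNA-seq of 20 libraries was analysed, 5 per group as the labels give them. The authors deposited CPM for 17415 genes, and their processing notes name STAR 2.7.3a, Partek, DESeq2 and the builds mm10 and mm39 without roles. Gene positions are those of the deposited table, and only 469 of 16015 matched genes started within 1000 bases of their GRCm38 (mm10) position. Whole reads could not be recovered, since 73.1% to 79.0% of low values came within 0.02 of a whole read, and no count model was used. The counting of strand is not given in the sources used here.

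Genes averaging at least 1 CPM over all 20 libraries were tested, since a filter of 10 CPM in 5 libraries leaves out weak members and leans on the group where a gene is high. One limma fit (3.58.1, in R 4.3.3) of log2(CPM + 1) took 4 group means and a mean-variance trend, with Benjamini-Hochberg adjustment over all tested genes and a threshold of 0.05. The script was tested on simulated data in which every group had the same spread. That test does not cover the larger spread of the PLA Ab ACLT group. Alternatives were pseudocounts of 0.1 and 5, other filters, median-of-ratios scaling, the replicate number as a block, 2 groups alone, a variance per group, a Y-linked covariate, and leaving out libraries. The restriction to libraries without Y-linked expression (mean of 4 genes under 5 CPM) was added after the data were seen. All 10 members are named in every comparison. From each pathway list at most 4 called genes of smallest adjusted p are named per comparison. Others are named only where a count turned on them or another comparison had named them, chosen after their values were seen. The members and lists were chosen with earlier results of these data known. Promoters came from RefSeq (GRCm38.p6), and were searched with Python 3.11.15.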

Additional observations from a re-analysis of the deposited data

How the results depend on the processing

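Of the 10 members, the count called after ACLT with PLA Ab was 10 under every alternative in which all 10 were tested, except 9 without PLA Ab ACLT libraries 4 and 5 together, where H2-K1 (0.60, limma adjusted p = 0.0556) was lost, and 7 of 7 tested with the filter of 10 CPM in 5 libraries. After ACLT with GDF8 Ab and between antibodies in the control limb it was 0 under every alternative. Between antibodies in the ACLT limb the 5 lower calls fell to 0 with the filter of 10 CPM in 5 libraries, with median-of-ratios scaling, with 2 groups alone (where limma called 0 of all 13497 genes), with a variance per group and without PLA Ab ACLT libraries 4 and 5 together, and became 10 in the libraries without Y-linked expression. With 1 library left out the count ranged from 0 to 6 there and from 0 to 5 for the interaction, which reached 9 in the libraries without Y-linked expression. With a variance per group the PLA Ab ACLT group had the smallest weight (0.353, against 1.19 to 1.62 in the other groups). Signs turned only for values that had not been called. Without PLA Ab ACLT libraries 4 and 5 together, the difference of GDF8 Ab from PLA Ab after ACLT was 0.15 for Cd74, 0.12 for H2-Aa, 0.12 for H2-Ab1 and 0.25 for H2-Eb1. In the control limb H2-DMa turned to -0.015 with the Y-linked covariate and to -0.19 in the libraries without Y-linked expression, and ranged from -0.045 to 0.19 with a library left out. The cause was not tested.

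The replicate number as a block (consensus correlation 0.225) left the calls at 10, 0, 5, 0 and 0 of 10 members in the order PLA Ab, GDF8 Ab, ACLT limb, control limb and interaction. The labels do not tie a number to a mouse. Deviations from the group means correlated above 0.1 in 8 of 10 same-number sets (0.0321 to 0.520), 7 of 10 ACLT libraries correlated best with the control library of their own number, and Y-linked expression matched in 10 of 10. Depth sets no limit on the strongly expressed members, while Ciita in PLA Ab control, at 0.523 to 1.09 CPM, stood for 11 to 23 reads.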
